A study of Mus musculus with 6 samples.

Results

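The 42 genes described here are Myc and genes for building ribosomes: RNA polymerase I and its factors, the proteins of small nucleolar ribonucleoprotein particles (snoRNPs), abundant nucleolar proteins, and assembly factors of both ribosomal subunits. They were taken by symbol from a deposited table of 57010 gene identifiers. The rule itself names no measured value, but the genes were chosen with earlier results of these data known. Each of the 42 symbols matched 1 identifier, and all 42 genes passed the filter on low counts, as did 13442 genes in all. The lowest count of any of them in a library was 880 and the highest was 42846.

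The RNA came from CT26, a mouse colon carcinoma line, in 2 groups of 3 libraries: sgControl, with a control guide RNA, and sgCdk10, whose guide is named for the cyclin-dependent kinase gene Cdk10. The title places the study in the field of nucleic acid sensing and antitumour immunity. No treatment or time point is named, and whether the cells are a clone or a pool, or whether the libraries of a group are separate cultures, is not given in the sources used here. The p-values therefore reflect the spread among these 6 libraries alone, and that spread may be technical.

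MYC is a transcription factor that binds DNA with its partner MAX at E-boxes, and genes for ribosome production are among its best known targets. Ribosomes are made in the nucleolus: RNA polymerase I transcribes the long ribosomal RNA precursor, snoRNPs modify it, and assembly factors fold and cut it into the small and the large subunit. Tumour cells that grow fast are known for large nucleoli and high levels of these genes.

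Promoter sequences are shown for 5 of the genes because they span the responses seen: Nop2 and Polr1b were higher in sgCdk10, Nop14 and Gar1 were lower, and Rrn3 barely moved. RefSeq windows on build GRCm38.p6, from 250 bases before to 50 bases after a gene's start, matched 35 of the 42 genes, and Fbl, Myc, Gnl2, Bop1, Rrs1, Rrp12 and Npm1 had none. Each line gives bases that end at or just before the annotated start, 5′ to 3′ on the gene's own strand. Capitals mark the E-box letters CACGTG, which read alike on both strands, and the ETS core letters CCGGAAG, searched on both strands. Rrn3 also had CCGGAAG matches beginning at -5 and 19 from its start, which run or lie past the printed bases and so carry no capitals. The Nop2 bases are chr6:125131723-125131882, plus strand, the Rrn3 bases chr16:13780449-13780698, plus strand, and the Polr1b bases chr2:129100836-129100994, plus strand. The Nop14 bases are chr5:34660149-34660308, minus strand, and the Gar1 bases chr3:129831397-129831556, minus strand.
Nop2: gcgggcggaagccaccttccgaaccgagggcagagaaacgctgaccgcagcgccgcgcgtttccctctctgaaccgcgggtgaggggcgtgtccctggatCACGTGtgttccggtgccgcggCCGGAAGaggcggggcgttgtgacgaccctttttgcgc
Rrn3: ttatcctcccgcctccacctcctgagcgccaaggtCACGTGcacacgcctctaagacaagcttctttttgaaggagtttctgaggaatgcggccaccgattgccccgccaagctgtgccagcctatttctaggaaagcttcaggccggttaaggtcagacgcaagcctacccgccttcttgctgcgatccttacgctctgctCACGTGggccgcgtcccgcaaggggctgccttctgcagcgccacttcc
Polr1b: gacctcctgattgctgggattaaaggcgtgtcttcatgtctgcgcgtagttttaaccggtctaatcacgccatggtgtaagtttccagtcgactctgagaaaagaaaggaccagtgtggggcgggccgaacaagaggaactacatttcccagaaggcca
Nop14: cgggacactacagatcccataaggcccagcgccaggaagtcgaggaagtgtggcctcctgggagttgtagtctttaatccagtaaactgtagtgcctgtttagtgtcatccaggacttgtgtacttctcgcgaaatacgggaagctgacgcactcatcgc
Gar1: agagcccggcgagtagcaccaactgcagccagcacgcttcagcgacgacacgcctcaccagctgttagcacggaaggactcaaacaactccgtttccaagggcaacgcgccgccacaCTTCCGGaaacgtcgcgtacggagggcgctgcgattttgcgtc

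Over the full windows, CACGTG occurred in 8 of the 35 genes (22.9%), against 8.09% of the 27025 genes with a window and 11.8% of the 9241 tested genes with one. CCGGAAG occurred in 13 of the 35 (37.1%), against 9.93% and 21.5%. Where a gene had several starts, a match in any of its windows counted, and the letters of the 2 motifs do not overlap in Nop2. By response, CACGTG stood in 1 of the 3 genes that were higher in sgCdk10, 3 of the 14 that were lower and 4 of the 18 that were not called. CCGGAAG stood in 1 of 3, 2 of 14 and 10 of 18. Both motifs were picked with the results known, and a match is a description of letters in a window.

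Of the 42 genes, 17 fell, 3 rose and 22 did not pass the test in sgCdk10. A gene is called here when edgeR's quasi-likelihood test gave a Benjamini-Hochberg adjusted p under 0.05 over all 13442 genes tested. Over all tested genes 42.5% were called, 22.1% higher and 20.4% lower, while of the 42 genes 47.6% were called, 7.14% higher and 40.5% lower. The share called is thus near that of all genes. Of the 20 called genes 17 were lower, and over all tested genes 2747 of 5717 were. Among the 4474 tested genes at least as abundant as the least abundant of the 42, 58.1% were called, 29.0% higher and 29.1% lower. These 4474, the abundant genes below, share that lower limit alone and were not matched in level to the 42. In CPM, the count of a gene scaled by its library's TMM-adjusted total, 20 of the 42 genes (47.6%) had groups without overlap, against 51.3% of all tested genes.

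All the changes were small. The log2 fold changes, sgCdk10 over sgControl, ran from -0.25 to 0.21 with a median of -0.04, against a median of -0.003 for all tested genes. Without sgControl 3 the median of the 42 genes was -0.06. None of the 42 reached a 1.5-fold change, which 5.8% of all tested genes reached with a call, and the largest change was 16.1%. The median size of change, sign aside, was 0.08 log2 units for the 42 genes, 0.16 for all tested genes and 0.11 for the 4474 abundant genes.

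**Figure D1:**
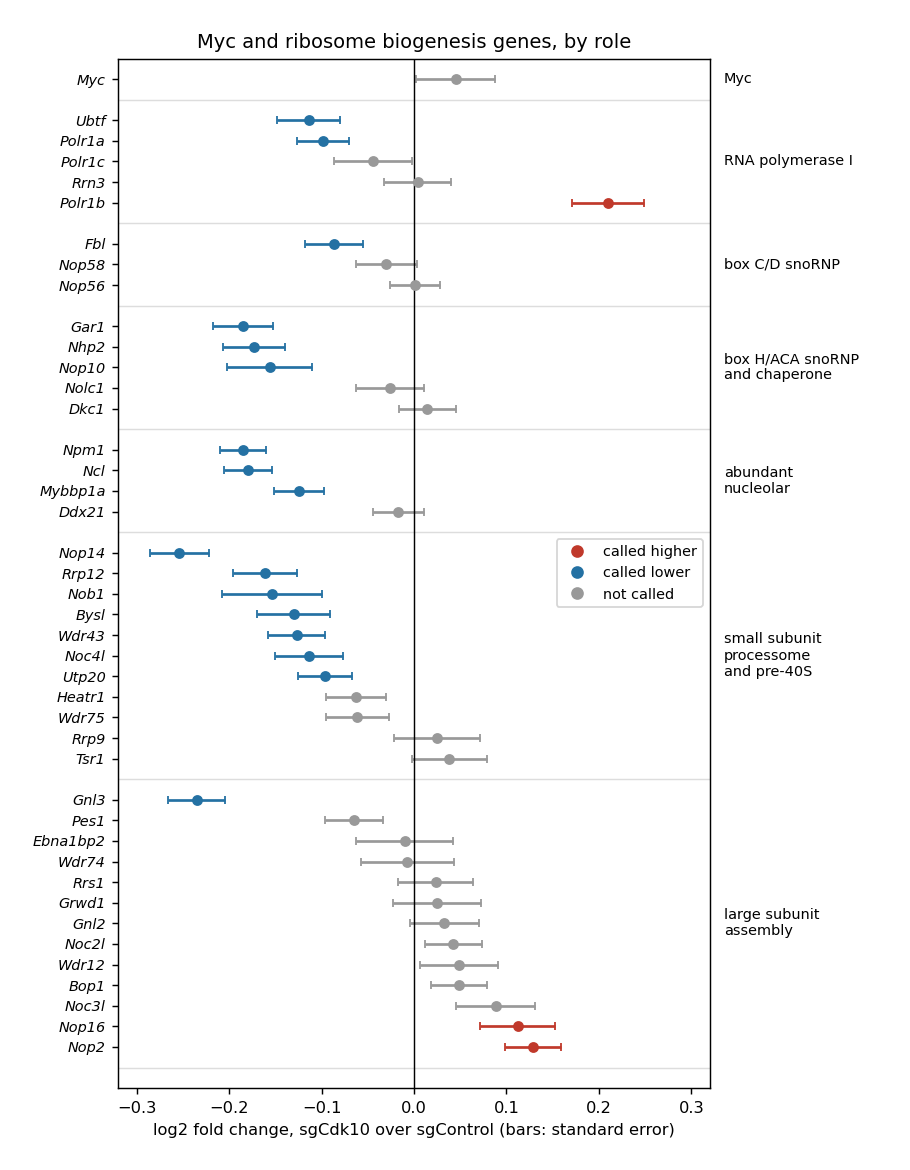
Log2 fold change of each of the 42 genes, sgCdk10 over sgControl (x axis; bars are the standard error from edgeR's quasi-likelihood fit, 3 libraries a group), grouped by role; blue, red and grey mark genes called lower, called higher and not called. Called genes of the snoRNP, nucleolar and small subunit groups were all lower, while 10 of the 13 large subunit genes were not called.

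The libraries held 17532202 to 19258309 counts, and 3 counts, taken as the floor of detection, came to 0.156 to 0.171 CPM, which covers counting error only. Cdk10 itself was at 20.4 ± 1.05 CPM (SD, n = 3) in sgControl and 11.6 ± 1.24 in sgCdk10, a log2 fold change of -0.82 (edgeR quasi-likelihood adjusted p = 8.42e-09). Library sgControl 3 stood apart on the second principal component, which held 16.5% of the variance, and its mitochondrial share was 4.93% against 4.19% to 4.40% in the other libraries. It was the library farthest from the sgControl mean for 27 of the 42 genes, a count that was not made for all tested genes. Without it, 4 of the 42 were higher and 20 lower, beside 22.1% and 22.2% of 13669 tested genes. The 10 leukocyte and endothelial markers summed to 0.17 to 0.386 CPM in sgControl and 0.104 to 0.114 in sgCdk10; none was tested, and Cd3e and Adgre1 were at 0 in every library. The 8 epithelial and colon markers summed to 36.1 to 40 CPM in sgControl and 57.6 to 59.0 in sgCdk10, with Krt18 (log2 fold change 0.65) and Krt20 (0.51) tested and Epcam, a defining epithelial marker, at 0 in every library; their part in the results on ribosome genes was not tested. In bulk RNA, fewer cells of a kind and less RNA per cell cannot be told apart.

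Myc is on the plus strand of chromosome 15, between 61985391 and 61990374 (GENCODE M21, GRCm38). Its level was 180.0, 174 and 156 CPM in the sgControl libraries and 175, 171.5 and 179.7 CPM in the sgCdk10 libraries. The sgCdk10 values lay inside the range of sgControl, where sgControl 3 was the low library. The log2 fold change was 0.05 ± 0.04 (SE; 95% interval -0.04 to 0.13; edgeR quasi-likelihood adjusted p = 0.427). Without sgControl 3 it was -0.02 (adjusted p = 0.698), and over 15 other settings of the processing it ran from -0.02 to 0.09 without a call. The lack of a call does not show that Myc RNA was alike in both groups.

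Around Myc, 4 of the 14 tested genes of its network rose and 2 fell, with a median log2 fold change of 0.07. Mxi1, which encodes a MAX partner that opposes MYC, was at 51.0, 54.0 and 50.5 CPM in sgControl and 106, 107 and 107 CPM in sgCdk10. Its groups lay far apart, with a log2 fold change of 1.04 ± 0.04 (SE; edgeR quasi-likelihood adjusted p = 1.47e-16), the largest among the 14. Mnt, another MAX-binding repressor, fell from 61.4 ± 1.58 to 50.3 ± 2.30 CPM (log2 fold change -0.29; edgeR adjusted p = 1.39e-05). Mxd3, of the same repressor family, fell from 28.9 ± 2.44 to 23.4 ± 0.595 CPM (log2 fold change -0.30; edgeR adjusted p = 3.66e-04). Max, the shared partner, rose from 67.6 ± 1.03 to 72.4 ± 1.72 CPM, with an edgeR adjusted p of 0.046. Trrap, a scaffold of MYC-bound acetyltransferase complexes, rose from 379.5 ± 18.3 to 418 ± 7.54 CPM. Mlxip, a partner of the related protein MLX, rose from 67.9 ± 2.49 to 77.0 ± 4.43 CPM. Mycl was at 0 in every library, Mycn had 0.0552 CPM in 1 library, under the floor, and Mlxipl stayed at or under 0.683 CPM.

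**Figure D2:**
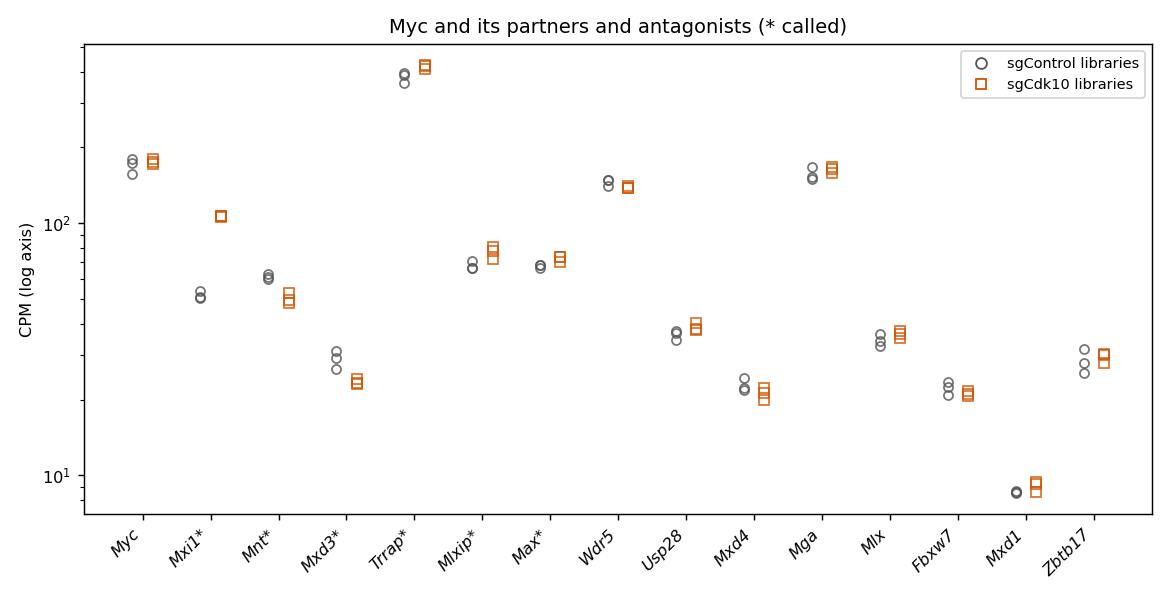
CPM (log axis) of Myc and the 14 tested genes of its network in each library, grey circles for sgControl and orange squares for sgCdk10, with called genes starred. The Mxi1 points lie at 50.5 to 54.0 CPM in sgControl and 106 to 107 CPM in sgCdk10, while those of Myc overlap.

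Among 28 other known MYC targets, chosen outside ribosome assembly, 15 fell and 5 rose, with a median log2 fold change of -0.09. Counts for this and the other lists stand beside 20.4% of all tested genes lower and 22.1% higher. Among the 4474 abundant genes these shares were 29.1% and 29.0%. Cdk4, a cell cycle kinase, fell from 595 ± 14.8 to 454 ± 4.03 CPM. Eif5a, a translation factor, fell from 1221 ± 32.4 to 1052 ± 11.5 CPM. Ran, the GTPase of nuclear transport, fell from 1257 ± 9.32 to 1080.0 ± 34.4 CPM. These 3 had the smallest p of that list, and their log2 fold changes were -0.39, -0.22 and -0.22.

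RNA polymerase I makes the ribosomal RNA precursor, and its 5 genes in the set split: Polr1b rose, Polr1a and Ubtf fell, and Polr1c and Rrn3 were not called. Beside these stand 22.1% of all tested genes higher and 20.4% lower, or 29.0% and 29.1% of the 4474 abundant genes. Polr1b encodes the second largest subunit and lies on chromosome 2 from 129100995 to 129126594. It was at 65.8, 69.4 and 68.6 CPM in sgControl and 79.0, 76.9 and 79.8 CPM in sgCdk10. All sgCdk10 libraries were above all sgControl libraries, and the log2 fold change of 0.21 ± 0.04 (SE; edgeR quasi-likelihood adjusted p = 1.01e-04) was the largest rise of the 42 genes. Polr1a, the largest and catalytic subunit, was at 283, 282 and 274 CPM in sgControl and 261, 260.1 and 263 CPM in sgCdk10. Its groups did not overlap either, in the other direction, and the log2 fold change was -0.10 ± 0.03 (edgeR adjusted p = 0.00605), which became -0.20 when GC content and transcript length were corrected for.

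Ubtf encodes the factor that opens ribosomal DNA for the polymerase. Its levels were 225, 221 and 204 CPM in sgControl and 194, 202 and 204 CPM in sgCdk10. The groups were separated by less than 1 CPM, between sgControl 3 and sgCdk10 3, and the log2 fold change was -0.11 ± 0.03 (edgeR adjusted p = 0.00945). That call was lost without sgControl 1 (-0.09; adjusted p = 0.0663) or without sgCdk10 1 (-0.09; 0.0841), and the value was -0.18 under the GC and length correction. Rrn3, the initiation factor that tethers the polymerase to its promoter, had the largest p of the group. It stood at 101, 95.2 and 103 CPM in sgControl and 101, 99.9 and 99.6 CPM in sgCdk10. The groups overlapped fully, with a log2 fold change of 0.00 (95% interval -0.07 to 0.07; edgeR adjusted p = 0.942). For Polr1c, a subunit shared with RNA polymerase III, the change was -0.04 log2 units (edgeR adjusted p = 0.418).

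Of 18 other genes of RNA polymerase I and its factors, 4 rose and 4 fell, with a median log2 fold change of -0.05. Baz2a, a subunit of the complex that silences ribosomal DNA copies, rose from 138 ± 1.59 to 179 ± 5.75 CPM (log2 fold change 0.38). Top1, a DNA topoisomerase, rose from 155 ± 3.32 to 184 ± 4.51 CPM (0.24). Taf1d, a subunit of the promoter selectivity factor, fell from 145 ± 5.20 to 123 ± 2.65 CPM (-0.24). Of 20 RNA polymerase III genes, which make the other small ribosomal RNA and transfer RNAs, 3 rose and 6 fell, with a median of -0.04. Crcp (-0.38) and Polr3c (-0.28) fell and Bdp1 (0.31) rose, the 3 with the smallest p.

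Box C/D snoRNPs methylate ribosomal RNA. Of the 3 genes for their proteins in this set 1 was called, beside 42.5% of all tested genes and 58.1% of the 4474 abundant genes. Fbl encodes fibrillarin, the methyltransferase. It was at 259, 264 and 249 CPM in sgControl and 246.5, 232 and 247.5 CPM in sgCdk10. The groups were close without overlapping, and the log2 fold change was -0.09 ± 0.03 (edgeR quasi-likelihood adjusted p = 0.0288). The Fbl call ended under DESeq2 (adjusted p = 0.0568) and on leaving out any of 4 libraries, sgControl 1 or 2 or sgCdk10 1 or 2, with adjusted p from 0.0515 to 0.223. Without sgCdk10 2 the log2 fold change of Fbl was -0.06.

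The scaffold proteins of the same particle were not called. Nop58 was at 250.1, 243 and 251 CPM in sgControl and 238, 234 and 256 CPM in sgCdk10. Its groups overlapped, and the log2 fold change was -0.03 (edgeR adjusted p = 0.492), and only the GC and length correction called it (-0.11; adjusted p = 0.0134). Nop56 was at 385, 382 and 385 CPM in sgControl and 388, 376 and 388 CPM in sgCdk10. Its log2 fold change was 0.00 (95% interval -0.05 to 0.05), the value nearest 0 of the 42 genes (edgeR adjusted p = 0.979).

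Box H/ACA snoRNPs turn uridines into pseudouridine and hold 4 core proteins. The genes for 3 of these fell by a like amount, while that for the enzyme was not called. Lower calls made up 20.4% of all tested genes and 29.1% of the 4474 abundant genes. Gar1 was at 126, 125 and 129 CPM in sgControl and 114, 109 and 112 CPM in sgCdk10. Nhp2 was at 121, 120.1 and 118 CPM in sgControl and 102.5, 108 and 107 CPM in sgCdk10. In both genes every sgCdk10 library lay below every sgControl library. The log2 fold changes were -0.19 ± 0.03 for Gar1 (edgeR quasi-likelihood adjusted p = 5.76e-05) and -0.17 ± 0.03 for Nhp2 (1.82e-04), the latter -0.11 under the GC and length correction. Nop10, the smallest core protein, was at 71.9, 74.1 and 82.8 CPM in sgControl and 67.7, 67.4 and 70.1 CPM in sgCdk10. sgControl 3 was the high library here, and the log2 fold change of -0.16 ± 0.05 (edgeR adjusted p = 0.00874) became -0.10 without it (adjusted p = 0.0388). The Nop10 call was lost under the GC and length correction (-0.09; adjusted p = 0.0664) and without sgCdk10 2 (-0.14; 0.0505).

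Dkc1 encodes dyskerin, the pseudouridine synthase of the particle. It was at 154, 152 and 152 CPM in sgControl and 152, 154 and 157 CPM in sgCdk10. The groups overlapped, with a log2 fold change of 0.01 ± 0.03 (95% interval -0.05 to 0.07; edgeR adjusted p = 0.734). Nolc1, a chaperone that carries snoRNPs into the nucleolus, changed by -0.03 log2 units (edgeR adjusted p = 0.609) over all libraries and -0.08 without sgControl 3, where it was called (adjusted p = 0.00183).

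Ratios of 2 genes within a library do not depend on how libraries are scaled, but these were not corrected for GC content and length. That correction gave log2 fold changes of 0.03 for Dkc1, -0.16 for Gar1, -0.11 for Nhp2 and -0.09 for Nop10. It gave 0.18 for Polr1b, -0.20 for Polr1a and -0.0006 for Polr1c. The log2 ratio of Dkc1 to Gar1 was 0.292, 0.281 and 0.238 in sgControl and 0.419, 0.495 and 0.496 in sgCdk10. The ratio of Dkc1 to Nhp2 rose likewise, from a mean log2 of 0.355 to 0.543, and that of Dkc1 to Nop10 from 1.01 to 1.17. None of these 3 ratios overlapped between the groups, whereas ratios among Gar1, Nhp2 and Nop10 overlapped and their means differed by -0.02 to 0.03. In RNA polymerase I the log2 ratio of Polr1b to Polr1a was -2.11, -2.02 and -2.00 in sgControl and -1.72, -1.76 and -1.72 in sgCdk10. That is a shift of 0.31 toward Polr1b with no overlap, and the shift against Polr1c was 0.26. The ratios of Nop56 to Fbl and of Nop14 to Noc4l did not overlap between the groups either. For the levels of single genes, 51.3% of all tested genes had no overlap. An exact permutation of the group labels gave p = 0.1 for each pair without overlap, or 0.2 after adjustment. With 3 libraries a group 0.1 is the smallest p it can give. Any pair without overlap reaches it, so the permutation adds nothing to the lack of overlap. The pairs were chosen after the values had been seen, so the ratios are a description.

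**Figure D3:**
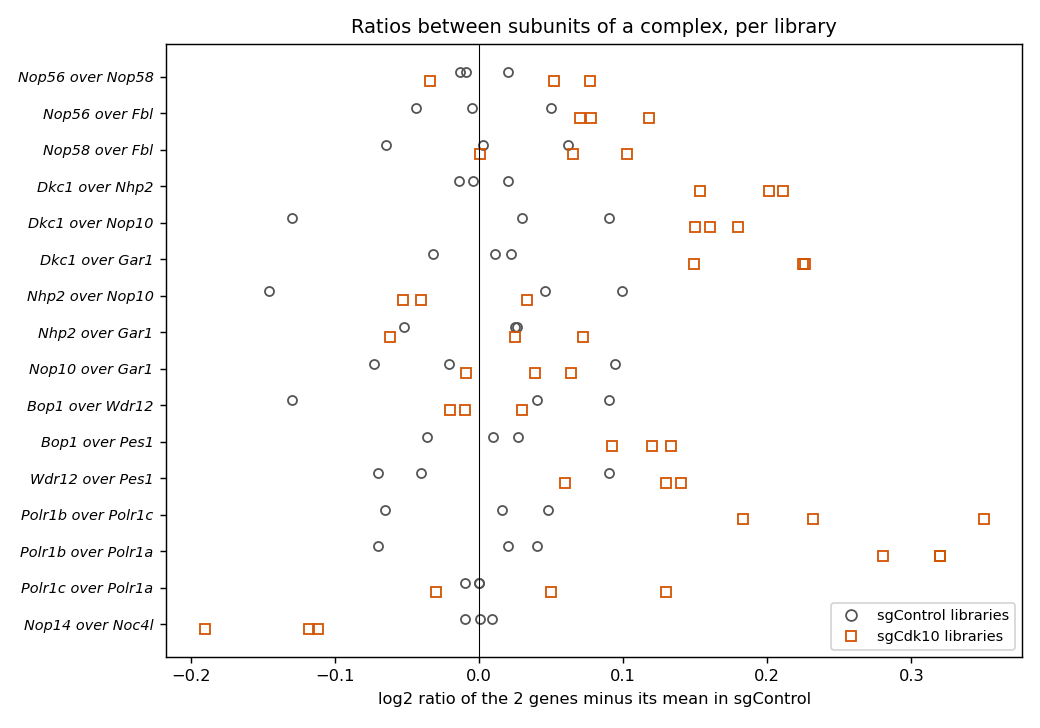
Log2 ratio of 2 subunit genes of a complex in each library, minus the mean of that ratio in sgControl (x axis), for 16 pairs; circles are sgControl libraries and squares sgCdk10 libraries. Ratios of Dkc1 to the other box H/ACA genes and of Polr1b to the other polymerase genes lie to the right in sgCdk10, without overlap.

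Of the 4 genes for abundant nucleolar proteins 3 fell, and these 3 had the largest changes in CPM of the whole set. Beside them, 20.4% of all tested genes were lower, and 29.1% of the 4474 abundant genes, most of which were not matched to such high levels. Npm1 encodes nucleophosmin, a multivalent protein of the outer nucleolus, and lies on chromosome 11 from 33152287 to 33163206. It was at 1879, 1843 and 1858 CPM in sgControl and 1641, 1604 and 1662 CPM in sgCdk10. The groups did not overlap, and the log2 fold change was -0.19 ± 0.03 (edgeR quasi-likelihood adjusted p = 1.72e-06). Ncl encodes nucleolin, an RNA-binding protein of the early precursor, and lies on chromosome 1 from 86344719 to 86359400. It was at 2419, 2364 and 2331 CPM in sgControl and 2076, 2051 and 2154 CPM in sgCdk10. Again no library of one group reached the other, and the log2 fold change was -0.18 ± 0.03 (edgeR adjusted p = 5.39e-06).

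Mybbp1a, a nucleolar protein that binds MYB, was at 826, 817 and 782 CPM in sgControl and 748, 729 and 748 CPM in sgCdk10. Its groups did not overlap, and the log2 fold change was -0.12 ± 0.03 (edgeR adjusted p = 5.85e-04). Ddx21, an RNA helicase, was at 343, 338 and 333 CPM in sgControl and 336, 329 and 338 CPM in sgCdk10. It was not called, with overlapping groups and a log2 fold change of -0.02 (95% interval -0.07 to 0.04; edgeR adjusted p = 0.65).

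Summed over the 42 genes, the level was 11110 ± 174 CPM in sgControl and 10370 ± 156 CPM in sgCdk10, a fall of 742 CPM before rounding. Ncl and Npm1 alone fell by 502 CPM, or 67.7% of that. Without them the sum went from 6881 ± 125 to 6641 ± 76.4 CPM. The pair made up 37.8% to 38.3% of the summed level in the sgControl libraries and 35.8% to 36.3% in the sgCdk10 libraries. The 42 genes together took 1.09% to 1.12% of all counts in sgControl and 1.02% to 1.05% in sgCdk10. Per kilobase of annotated exon, Npm1 was the most abundant (698 CPM per kb in sgControl, 614 in sgCdk10), followed by Ncl (233 and 206) and Mybbp1a (139 and 128). The least abundant by that measure were Wdr12 (6.0 and 6.2) and Polr1b (11.7 and 13.5), although the union of exons overstates the length of a gene with several transcripts.

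In the small subunit processome and its later precursor, 7 of 11 genes fell and none rose. Of all tested genes 20.4% were lower, and of the 4474 abundant genes 29.1%. Nop14, which binds the small subunit precursor early, lies on chromosome 5 from 34638536 to 34660148. It was at 169.8, 172.5 and 169 CPM in sgControl and 139.8, 141 and 147 CPM in sgCdk10. This was the largest fall of the 42 genes, by 16.1%, with no overlap and a log2 fold change of -0.25 ± 0.03 (edgeR quasi-likelihood adjusted p = 5.11e-07). Rrp12, an export factor of the precursor, was at 116, 116 and 109.6 CPM in sgControl and 99.4, 103 and 102 CPM in sgCdk10. Wdr43, a repeat protein of the subcomplex that first binds the transcript, was at 225, 223 and 234 CPM in sgControl and 206, 205 and 213 CPM in sgCdk10. The groups of both genes stood apart, with log2 fold changes of -0.16 ± 0.03 for Rrp12 (edgeR adjusted p = 5.06e-04) and -0.13 ± 0.03 for Wdr43 (0.0015).

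The other 4 called genes of the small subunit had smaller margins. Bysl, a factor of the maturing precursor, fell by 0.13 on the log2 scale (edgeR adjusted p = 0.00952), and the call ended without sgControl 2 (0.0708). Utp20, a giant scaffold protein, had -0.10 (0.00989), or -0.18 under the GC and length correction, and its call ended without sgControl 2 (0.0553) or sgCdk10 3 (0.0836). Noc4l, the binding partner of Nop14, had -0.11 (0.0142), and its call ended under DESeq2 (0.0669) and without sgCdk10 1 (0.11). Nob1, the nuclease that makes the last cut of the small ribosomal RNA, had -0.15 (0.0372), yet its groups overlapped because sgControl 3 stood at 88.0 CPM against 100.5 and 103 in the other controls. Leaving out sgControl 1, sgControl 2, sgCdk10 2 or sgCdk10 3 ended the Nob1 call, with adjusted p from 0.0994 to 0.128.

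Rrp9, a snoRNP protein of early precursor cutting, had the largest p in the small subunit set. It was at 62.2, 63.1 and 56.2 CPM in sgControl and 63.5, 60.2 and 60.9 CPM in sgCdk10. Those ranges overlapped, and the log2 fold change was 0.02 (edgeR adjusted p = 0.699). Heatr1 (-0.06; 0.129) and Wdr75 (-0.06; 0.157), of the same subcomplex as the called gene Wdr43, were not called. That subcomplex also supports transcription by RNA polymerase I. Heatr1 was called under the GC and length correction (-0.13; 6.56e-04). Tsr1, a GTPase-like factor of the late precursor, was not called (0.04; 0.482) even though its groups did not overlap in CPM, at 59.95 to 61.1 in sgControl and 61.3 to 63.8 in sgCdk10. Among 43 other genes of the same steps, 18 fell and 4 rose, with a median log2 fold change of -0.07. The 3 with the smallest p fell: the kinase Riok1 by 0.28, the RNA-binding Pno1 by 0.23 and Esf1 by 0.17 on the log2 scale.

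In large subunit assembly, 1 of 13 genes fell, 2 rose and 10 were not called, and the median log2 fold change was 0.03. Of all tested genes 20.4% were lower and 22.1% higher, or 29.1% and 29.0% of the 4474 abundant genes. Gnl3 encodes nucleostemin, a nucleolar GTPase, and lies on chromosome 14 from 31012433 to 31019152. It was at 158, 154 and 160.2 CPM in sgControl and 133, 134 and 134 CPM in sgCdk10. It was the one gene of the set called lower, with no overlap and a log2 fold change of -0.24 ± 0.03 (edgeR quasi-likelihood adjusted p = 1.22e-06). Nop2, a methyltransferase of the large ribosomal RNA, was at 252.5, 252 and 236 CPM in sgControl and 270.1, 267 and 272 CPM in sgCdk10. Nop16, a nucleolar protein of the early large precursor, was at 68.4, 71.0 and 68.1 CPM in sgControl and 78.3, 73.6 and 72.4 CPM in sgCdk10. Both rose without overlap, by log2 fold changes of 0.13 ± 0.03 for Nop2 (edgeR adjusted p = 0.00138) and 0.11 ± 0.04 for Nop16 (0.0289). The Nop16 call ended under DESeq2 (0.125), without sgControl 1 (0.0813) and without sgCdk10 1 (0.196).

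Pes1, Bop1 and Wdr12 form the PeBoW complex, and none of them was called. The log2 fold change of Pes1 was -0.07 (edgeR adjusted p = 0.0999), that of Bop1 0.05 (0.209) and that of Wdr12 0.05 (0.383). The log2 ratio of Bop1 to Pes1 was 0.148, 0.165 and 0.102 in sgControl and 0.230, 0.271 and 0.258 in sgCdk10. Those ratios did not overlap between the groups, which for levels of single genes held in 51.3% of all tested genes. The mean log2 ratio of Wdr12 to Pes1 rose by 0.116, against 0.114 for Bop1 to Pes1, but its groups overlapped. The ratio of Bop1 to Wdr12 had the same mean, 1.45, in both groups. Under the GC and length correction the log2 fold changes were -0.012 for Bop1 and -0.065 for Pes1.

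Wdr74, a partner of the ATPase NVL, had the largest p of the large subunit set. It was at 54.1, 55.1 and 48.7 CPM in sgControl and 52.1, 50.1 and 54.8 CPM in sgCdk10. The groups overlapped, with a log2 fold change of -0.01 (95% interval -0.11 to 0.09; edgeR adjusted p = 0.924). The remaining genes ran from -0.01 for Ebna1bp2 to 0.09 for Noc3l. Between them were Rrs1 (0.02), a partner of large subunit ribosomal proteins, Grwd1 (0.02), a histone- and ribosomal protein-binding chaperone, the GTPase Gnl2 (0.03) and Noc2l (0.04), a partner of Noc3l. Without sgControl 3, Noc3l was called higher (0.13; edgeR adjusted p = 0.00607), and Pes1 (-0.07; 0.0343) and Ebna1bp2 (-0.08; 0.039) were called lower.

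Of 42 other large subunit assembly genes, 11 fell and 4 rose, with a median log2 fold change of -0.03. The helicases Ddx55 (-0.39) and Ddx56 (-0.35) and the RNA-binding Rbm28 (-0.20) had the smallest p. Of 11 snoRNP assembly factors, 2 rose and 2 fell, with a median of 0.06. Tcof1, the treacle protein (-0.28), and Pih1d1, a chaperone adaptor (-0.27), fell, and Naf1, a box H/ACA assembly factor (0.16), rose. Of 15 genes of the RNA exosome and of ribosomal RNA trimming, 7 fell and 1 rose, with a median of -0.08. Exosc5 (-0.28), Exosc8 (-0.22) and the exonuclease Xrn2 (-0.19) led them by p.

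**Figure D4:**
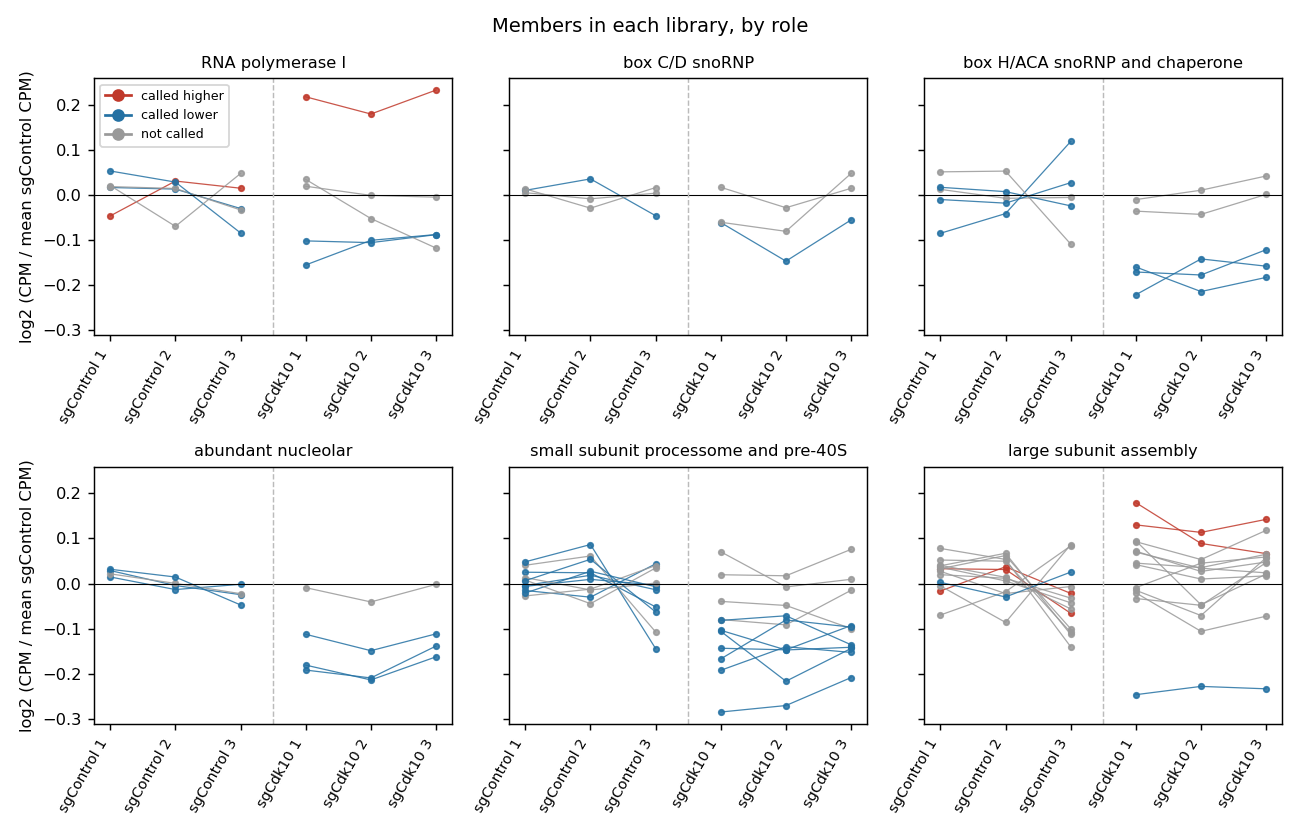
Level of each gene in each library as log2 of its CPM over the mean of sgControl (y axis), in 6 panels by role; lines only join the points of 1 gene within a group. Library sgControl 3 departs from the other controls in the small and large subunit panels, and the blue genes lie below 0 in all sgCdk10 libraries.

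Over the sgCdk10 libraries the median deviation of the 42 genes from the sgControl mean was -0.03, -0.06 and -0.01 log2 units, and over the sgControl libraries 0.02, 0.01 and -0.02. By role, the summed level in sgCdk10 was 0.894 of that in sgControl for the abundant nucleolar proteins and 0.924 for the small subunit set. It was 0.952 for the box H/ACA set, 0.964 for RNA polymerase I, 0.978 for box C/D and 1.01 for the large subunit set. The ranges of the library sums did not overlap for the nucleolar, small subunit, box H/ACA and RNA polymerase I sets. They overlapped for the box C/D set and the large subunit set. Sums in CPM weigh abundant genes most and do not show that each gene of a set moved. In sgControl, Ncl (2371) and Npm1 (1860) led the nucleolar 5378 CPM, and Nolc1, not called, held 413.6 of 889 in box H/ACA. Polr1a (279.9) and Ubtf (216.5) led the 739.1 CPM of RNA polymerase I, where Polr1b rose. Of single genes, 51.3% of all tested genes and 65.4% of the 4474 abundant genes had groups without overlap. The gap was narrow for RNA polymerase I, at 723.3 CPM in sgControl 3 and 715.4 in sgCdk10 3. For box H/ACA these libraries stood at 865.2 and 860.2 CPM.

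A property that the choice of genes did not use is that 7 of the 42 (16.7%) hold snoRNA genes within their span on the same strand: Ncl, Nop56, Nop58, Dkc1, Tsr1, Wdr43 and Gnl3. Over all tested genes 233 of 13442 (1.73%) do so. Of the 7 hosts 3 fell (Ncl, Wdr43 and Gnl3) and 0 rose, and over all 233 hosts 76 fell and 40 rose. Of all tested genes 20.4% were lower and 22.1% higher, and of the 4474 abundant genes 29.1% and 29%. The 20 hosted snoRNAs with a row in the count table had at most 15 counts in any library, and they are not described further. Exons of 18 of the 42 genes overlap a gene on the opposite strand, Gnl3 with Pbrm1, Mybbp1a with Spns2 and Nhp2 with Rmnd5b among them. The strand setting of the counting being not given here, reads of such partners cannot be told apart.

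Of the 20 calls, 12 held under each of the 15 other settings: Polr1a, Nhp2, Gar1, Ncl, Npm1, Mybbp1a, Nop14, Wdr43, Rrp12 and Gnl3 lower, and Polr1b and Nop2 higher. The other 8 calls were lost under at least 1 setting, and none of the 20 genes changed sign. Of the 22 genes not called, 6 were called under at least 1 setting and 12 changed sign under at least 1.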

How the data were processed

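The authors deposited 1 table of raw counts per Ensembl gene for all 6 libraries, with no normalization; 0 per-sample columns were left unused. Per the labels' protocols, total RNA was extracted with TRIzol and libraries were made with a VAHTS Universal V6 kit. Of build and tools, the submitters' processing notes list mm10, featureCounts 2.0.3, HISAT2 2.2.1 and DESeq2 1.40.2 (settings, strandedness and annotation release: not given in the sources used here). Groups and replicate numbers come from the library titles. Symbols and coordinates are from GENCODE M21 (GRCm38), with which 52081 of 57010 identifiers matched; promoter windows and older symbols are from RefSeq (GRCm38.p6).

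Genes were kept by filterByExpr (minimum count 10, minimum total 15), scaled by TMM and tested with edgeR 4.0.16 (quasi-likelihood, robust, group as the only term), with Benjamini-Hochberg adjustment over all 13442 genes and a threshold of 0.05; SE is the fold change over the root of its F statistic. The code was tested on simulated data. Alternatives were DESeq2-type size factors, library totals alone, DESeq2 1.42.0, limma-voom (limma 3.58.1), no filter, a stricter filter (1 CPM throughout a group), the replicate number as a block, non-robust dispersions, a loess correction for GC content and transcript length (span 0.5), and leaving out each library in turn. Same-numbered libraries did not deviate together (correlations of 0.0255, -0.0568 and -0.096), so numbers were not taken as pairs.

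Every gene of the set is named. Values in each library are given for Myc and, in each role, the 3 genes with the smallest p, the 1 with the largest, and called genes opposite to most of their role; of each other list, the 3 with the smallest p. The genes and lists were chosen with earlier results of these data known, so no list was tested; other genes named were chosen after their values were seen.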

Additional observations from a re-analysis of the deposited data

How the results depend on the processing

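The counts of genes called lower and higher kept within 1.5 times of 17 and 3 under every alternative. DESeq2 called 15 lower and 2 higher, and the GC and length correction 18 and 3. With the replicate number as a replicate block, 17 were lower and 3 higher, of 5481 genes called in all against 5717 without it, and the median log2 fold change of the 42 genes was -0.0378. Leaving out 1 library at a time gave 13 to 20 lower, 2 to 4 higher, 4791 to 6056 genes called in all and medians from -0.0647 (without sgControl 3) to -0.0281. No called gene changed sign. Genes not called that did were the following, and the cause was not tested. In the main fit their log2 fold changes ran from -0.026 (Nolc1) to 0.049 (Bop1). Nop56 was at -0.00145 with DESeq2-type size factors, -0.00142 with DESeq2, -0.000506 with no filter, -0.00121 with the stricter filter and -0.0124 with the GC and length correction. That correction also turned Rrn3 to -0.000659, Rrp9 to -0.00802, Bop1 to -0.012, Wdr12 to -0.036, Noc2l to -0.00119, Grwd1 to -0.00066 and Wdr74 to 0.0381. Leaving out 1 library at a time, log2 fold changes ran from -0.0153 to 0.0877 for Myc, -0.0294 to 0.0244 for Rrn3, -0.00608 to 0.0165 for Nop56, -0.0814 to 0.00143 for Nolc1 and -0.0301 to 0.0567 for Rrp9. They ran from -0.0645 to 0.028 for Wdr74, -0.0284 to 0.0559 for Rrs1, -0.0794 to 0.03 for Ebna1bp2 and -0.0302 to 0.0593 for Grwd1. The median of all genes moved most, by -0.0106 log2 units, under the GC and length correction. Each gene had at least 880 counts in every library, and 3 libraries a group limit the precision of changes this small.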
